A study of Rattus norvegicus with 4 samples.

Results

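Translation factors and aminoacyl-tRNA synthetases were followed in rat ovaries cultured with or without anti-Müllerian hormone (AMH). The set comprises the eukaryotic initiation factors eIF1 to eIF6, the elongation factors eEF1 and eEF2 with enzymes that modify them, and the enzymes that charge tRNAs. Genes were taken by symbol from the platform annotation, without the eIF2 kinases and the eIF4E-binding proteins, and each was represented by its brightest probe set over the 4 arrays. This gave 85 genes with 135 probe sets, out of 14218 genes with a probe set of a single symbol and 31099 probe sets in all. Of the 85 genes, 82 were bright enough to be tested.

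Whole ovaries of female rat pups (Rattus norvegicus) at postnatal day 4, an age at which most follicles are still primordial, were cultured for 10 days. Control ovaries received no hormone, and treated ovaries received AMH at 50 ng/mL, a TGF-beta family hormone made by granulosa cells of growing follicles. Both groups shared a serum-free medium with insulin, transferrin, ascorbic acid and bovine serum albumin. Each RNA sample pooled about 10 ovaries of 1 group, and 2 independent pools per group were hybridised to 1-colour Affymetrix arrays. The series asks which transcripts change when AMH restrains the primordial to primary follicle transition. In pooled whole organs, fewer cells of a type and less RNA per cell cannot be told apart.

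Protein synthesis starts when eIF2, carrying the initiator tRNA and GTP, joins the small ribosomal subunit together with eIF1, eIF1A and the large scaffold eIF3. The eIF4 proteins bind the mRNA cap and unwind the leader, and eIF2B recharges eIF2 with GTP after each round. eEF1A then delivers charged tRNAs, eEF2 moves the ribosome along, and each amino acid is attached to its tRNA by a dedicated synthetase. Oocytes store RNA and protein that the early embryo uses.

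Several properties of the arrays differed with the groups. GAPDH probes near the 3′ end outshone those near the 5′ end, a sign of shortened RNA, by 1.17 and 1.27 times in control and by 6.56 and 6.37 times with AMH. For beta-actin the same ratio was 3.17 and 4.6 in control and 10.7 and 14.4 with AMH. Chip identifiers hold a run string that is not shared between the groups, so run and treatment cannot be told apart. Of 10 oocyte markers with a probe set, 0 were higher and 7 lower. Their summed intensity was 10916 and 10214 in control against 7548 and 7975 with AMH, mostly from Zp2, Zp3 and Ooep. Zp2 and Zp3 read at least 1977.8 on every array and were not called. Gdf9 read 1724.9 and 1732.5 in control and 453.7 and 317.7 with AMH and was called lower. Sohlh1 read 248.5 and 218.8 against 75.9 and 35.5 and was also called lower. Bmp15 (22.6 and 22.3) and Kit (18.9 and 3.9) were called lower, with AMH arrays below the filter intensity of 27.8. Of 13 granulosa markers 3 were higher and 1 lower, with sums of 4437 and 3954 in control and 7889 and 5572 with AMH. Of 13 tested macrophage and leukocyte markers 1 was higher and 1 lower. Cd163 and Itgam, at most 11.6 on any array, were too dim to be tested, whereas Adgre1 read at least 96.2 and Lyz2 at least 133. All 15 with a probe set summed to 1627 and 1421 in control and 882.2 and 2530 with AMH. Of 8 tested endothelial markers none was called. Of 5 red blood cell markers 2 were tested, of which Hbb was lower and Alas2 was not called. All 5 summed to 1444 and 1246 in control and to 121.1 and 99.4 with AMH. Hbb alone read 1362 and 1166.8 in control and 89.4 and 55.3 with AMH. The part of RNA quality, run and cell composition in the results that follow was not tested.

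Among the 82 tested members, 10 rose and 18 fell with AMH and 54 did not pass the test. Each difference is the AMH level less the control level in log2(intensity + 16), followed by its standard error from limma (2 arrays in each group). A gene was called at an adjusted p of 0.05 over all 18625 tested probe sets. The 10 rises are 12.2% of the tested members, against 11.1% of the 10621 tested genes. The 18 falls are 22.0%, against 11.9%, and in either direction 34.1% of members were called, against 23%. By role this share was 60% for eIF2B, 50% each for elongation factors and eIF5A, 45.5% for eIF3 and 33.3% for eIF4. It was 31.6% for cytosolic synthetases, 27.3% for start codon factors, 23.1% for mitochondrial synthetases and 0% for enzymes acting on elongation factors. Each role holds at most 19 tested genes. The median difference of the members was -0.08, while that of all tested genes was 0.07. Of the falls 8 reached 2-fold, and of the rises 0, against 6.05% and 2.01% of all tested genes that fell or rose by that much. The groups did not overlap for 61 members: in 28 both AMH arrays lay above both control arrays (36% of all tested genes did so), and in 33 below (28.6%).

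The balance depended on the scale and on the arrays used. With each array centred on its median, 14 members rose and 14 fell, while 13.4% of all tested genes rose and 9.04% fell. With scaling to the hybridization controls 0 members rose and 28 fell. The latter scaling moved the median of all tested probe sets from 0.025 to -0.385, and 0.885% of all tested genes then rose and 24.4% fell. All 10 rises kept a positive difference there (0.016 to 0.44), but the lowest adjusted p was 0.217. Without control replicate 1 there were 1 rise and 8 falls, without control replicate 2 there were 3 and 10, without AMH replicate 1 there were 20 and 20, and without AMH replicate 2 there were 12 and 19. Over all tested genes the corresponding shares ran from 2.22% to 15.7% for rises and from 5.24% to 15.3% for falls. In such a fit the residual spread came from the group that still had both arrays. Falls of Eif2b3, Ears2, Eif5a, Eif1b and Eif4g3 passed in every alternative in which they were tested, and no rise did. None of these genes has another tested probe set, so averaging the probe sets of a gene left their differences unchanged. Eif4g1 and Eif3k, with 2 tested probe sets each, lost their calls only with that averaging.

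**Figure D1:**
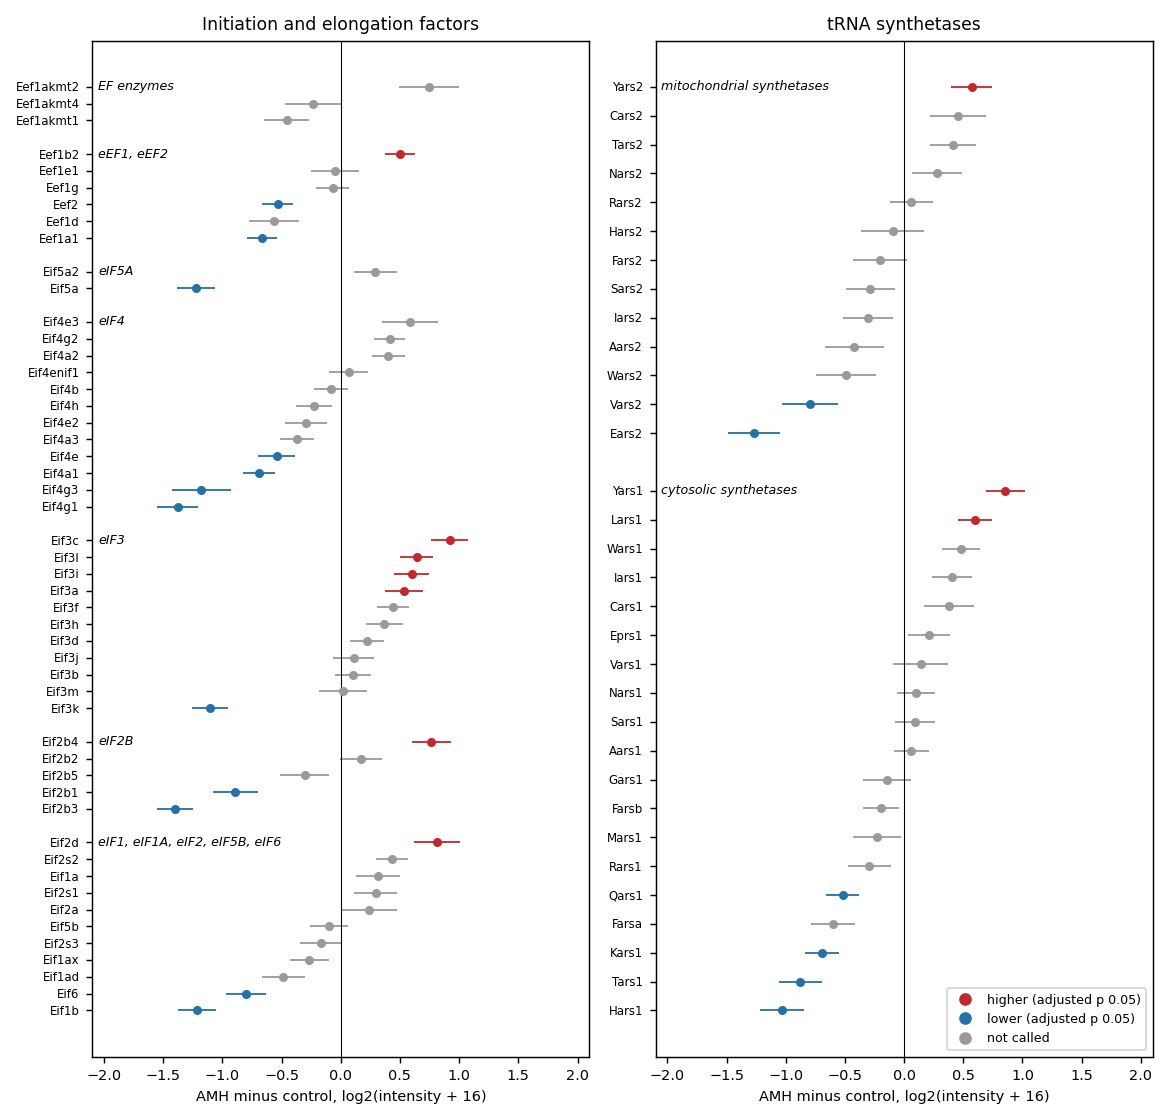
Fitted difference (AMH minus control, log2(intensity + 16)) of the 82 tested members at their brightest probe set, grouped by role, with bars for 1 standard error (n = 2 arrays per group). Red genes were called higher (10) and blue genes lower (18). Among eIF3 subunits 10 of 11 differences lie above 0 and 1 below, and every other role also holds both signs; with scaling to the hybridization controls no member was called higher.

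**Figure D2:**
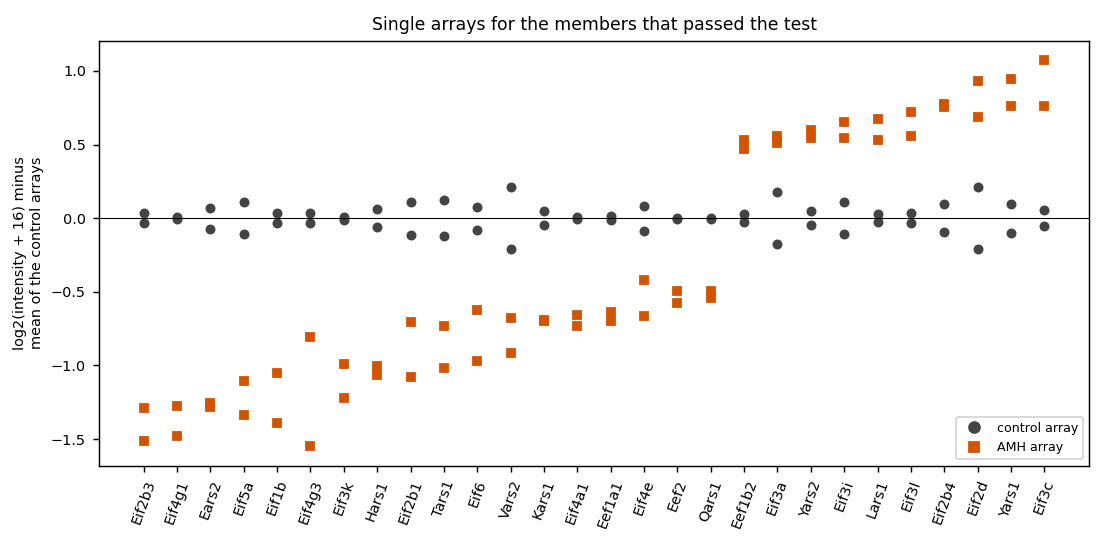
Each array of the 28 called members as log2(intensity + 16) minus the mean of that gene's control arrays, ordered by difference. In every gene both AMH arrays lie on the same side of both control arrays, from Eif2b3 (-1.40) to Eif3c (0.92). The genes were picked by their call on these same arrays, so this separation is no further support. Of all tested genes, AMH arrays lay above both controls in 36% and below in 28.6%. With scaling to the hybridization controls the 10 on the right were not called.

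The group of start codon factors also holds Eif5b and Eif6, which act on the joining of the ribosomal subunits. Of its 12 genes 11 were tested, 1 rose and 2 fell (median -0.10). Eif1b, a close relative of the start-codon selection factor eIF1, read 2023.6 and 1923.8 in control and 945.7 and 744 with AMH. Both AMH values lay far below the controls, and Eif1b fell by 1.22 ± 0.16 (2.33-fold, adjusted p = 0.00219). Eif6, which keeps the large ribosomal subunit from joining too early and serves in its assembly, read 964.2 and 863.6 in control and 456.9 and 586.2 with AMH. The groups did not overlap (AMH lay below control in 28.6% of all tested genes), and Eif6 fell by 0.80 ± 0.17 (adjusted p = 0.0143). The call was lost without control replicate 1 (adjusted p = 0.119).

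Eif2d, which can place initiator tRNA on the ribosome independently of eIF2, was the member of this group that rose. It read 239.9 and 325.7 in control against 549 and 460.5 with AMH, a difference of 0.81 ± 0.19 (1.75-fold, adjusted p = 0.0218). The rise lost its call without control replicate 1 (0.60, adjusted p = 0.201). Of the eIF2 subunits themselves, Eif2s2 (beta) gave 0.44 ± 0.13 and just missed the threshold (adjusted p = 0.052), although its AMH values of 2184.8 and 2368 lay above the control values of 1685.7 and 1668.5. It passed in 5 of 14 alternatives. Eif2s1 (alpha, the subunit phosphorylated under stress) gave 0.29 ± 0.18 and Eif2s3 (gamma) gave -0.17 ± 0.17, neither of them called. Eif2s3y, the Y-linked gamma subunit gene, was between 0.1 and 2.4 on these arrays of female ovaries and was not tested.

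The interacting factors eIF1A and eIF5B gave no call at their brightest probe sets. Eif5b, the GTPase that joins the ribosomal subunits, gave -0.10 ± 0.16, but a dimmer probe set fell by 1.14 ± 0.23 (114.8 and 162 in control, 55.6 and 50.6 with AMH, adjusted p = 0.0111). Eif1a had 4 tested probe sets with differences of 0.31, -0.31, 0.68 and -0.41, none called. Eif1ax gave -0.27 ± 0.17, and Eif2a, a further initiator tRNA binding factor, 0.24 ± 0.24.

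The 5 subunits of the exchange factor eIF2B went different ways: 1 rose, 2 fell and 2 were not called. Eif2b3, the gamma subunit of the catalytic part, had the largest fall of any member. It read 1026.4 and 976.9 in control and 400 and 341.1 with AMH. It fell by 1.40 ± 0.16 (2.64-fold, adjusted p = 0.00114), larger than the gap between arrays of either group. Eif2b1, the alpha subunit that senses phosphorylated eIF2, read 545.1 and 464.1 in control and 229.6 and 302.8 with AMH. It fell by 0.89 ± 0.19 (adjusted p = 0.0136), a call lost without control replicate 1 (adjusted p = 0.111).

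Eif2b4, the delta subunit of the same regulatory part, moved the other way. Its arrays read 200.8 and 230.7 in control and 373.9 and 380.6 with AMH, a rise of 0.77 ± 0.17 (1.7-fold, adjusted p = 0.0151). The call was lost without control replicate 1 (adjusted p = 0.154), without control replicate 2 (adjusted p = 0.0574) and with hybridization control scaling (0.31, adjusted p = 0.336). Eif2b5, the catalytic epsilon subunit, gave -0.31 ± 0.21, with 0.19 at its dimmer probe set, and Eif2b2 gave 0.17 ± 0.18.

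**Figure D3:**
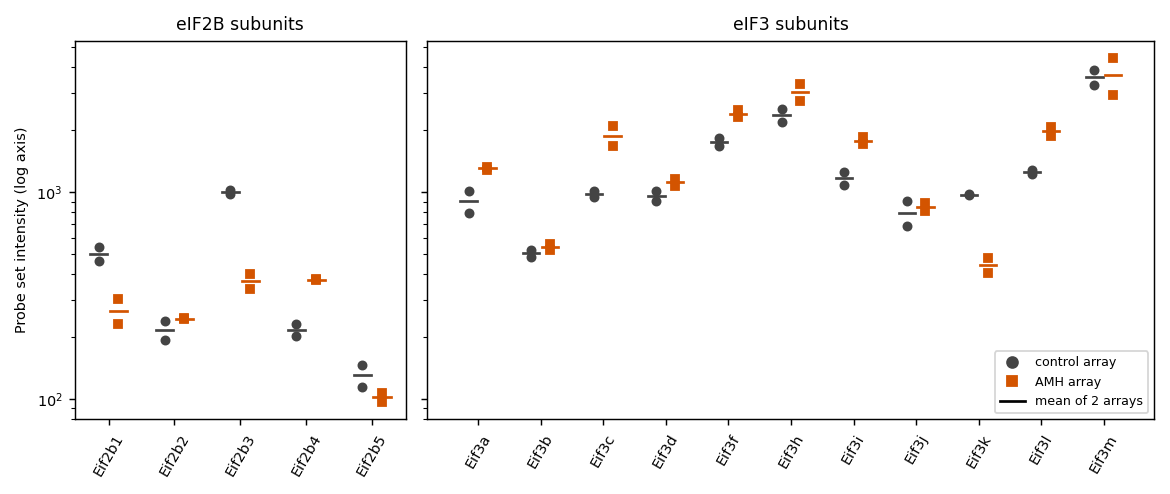
Probe set intensity (log axis) of the eIF2B and eIF3 subunits on each array, with bars for the mean of 2 arrays; levels of different genes come from different probes and are not comparable. Eif2b3, Eif2b1 and Eif3k are lower on both AMH arrays, and Eif2b4, Eif3a, Eif3c, Eif3i and Eif3l are higher, rises that were not called with scaling to the hybridization controls.

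eIF3 is the largest initiation factor, a ring of subunits around the small ribosomal subunit. Of its 11 measured subunits 4 rose, 1 fell and 6 were not called, and the median difference was 0.37 (-0.11 with hybridization control scaling, under which none rose). The rises are 36.4% and the fall 9.09% of these subunits, against 11.1% and 11.9% of all tested genes. Eif3c, a core subunit, read 942 and 1014.4 in control and 1669.8 and 2075.6 with AMH. It had the largest rise of any member, 0.92 ± 0.16 (1.89-fold, adjusted p = 0.0063).

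Eif3l read 1282 and 1223.1 in control against 1855.4 and 2070.2 with AMH and rose by 0.64 ± 0.14 (adjusted p = 0.0157). Eif3i, a beta-propeller subunit, read 1078.5 and 1255.9 against 1706.7 and 1838 and rose by 0.60 ± 0.15 (adjusted p = 0.0239). The call of Eif3i was lost without control replicate 1 (0.49, adjusted p = 0.261), without control replicate 2 (adjusted p = 0.0832), without an intensity trend and with hybridization control scaling. That of Eif3l was lost in the same settings and with the mean of probe sets. Eif3a, the scaffold subunit, read 789.7 and 1012 against 1278.3 and 1322.5. Its rise of 0.53 ± 0.16 lay just inside the threshold (adjusted p = 0.0496) and was lost in 9 of 14 alternatives. The AMH arrays of these genes were higher than both controls in each case, which also held for 36% of all tested genes.

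Eif3k, a small peripheral subunit that binds Eif3l, was the subunit that fell. It read 963.3 and 976.4 in control and 406.9 and 480.4 with AMH, and fell by 1.11 ± 0.15 (2.15-fold, adjusted p = 0.00287). Eif3f gave 0.44 ± 0.14 (adjusted p = 0.0531) and Eif3h 0.37 ± 0.15 (adjusted p = 0.126), with AMH arrays above both controls but without a call. Eif3d (0.22), Eif3j (0.11), Eif3b (0.10) and Eif3m (0.02) differed less. Eif3m, the brightest of the probe sets, had AMH arrays as far apart as 2942.8 and 4444.9.

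Rises of eIF3 subunits did not hold at every probe set. A dimmer probe set of Eif3l read 404 and 304.2 in control and 51.5 and 59.2 with AMH, and fell by 2.36 ± 0.21 (adjusted p = 0.00052). A dimmer one of Eif3c read 123 and 91.8 against 19.8 and 37.8 and fell by 1.48 ± 0.28 (adjusted p = 0.00882). When the probe sets of a gene were averaged, Eif3l gave -0.86 (adjusted p = 0.0143) and Eif3c -0.28 (adjusted p = 0.35). A dimmer probe set of Eif3j fell by 1.00 ± 0.24 (adjusted p = 0.0237), while that of Eif3k gave 0.41 ± 0.24 without a call. Averaging also ended the call of Eif3k (-0.35, adjusted p = 0.164).

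In the eIF4 group, which recognises the cap and unwinds the mRNA leader, 4 of 12 members fell and 0 rose (median -0.26). With hybridization control scaling 5 fell, with quantile normalization 4 fell and 2 rose, and without AMH replicate 1 there were 5 falls and 3 rises. Eif4g1, the scaffold that links cap, helicase and ribosome, read 382.6 and 378.1 in control and 126.3 and 147.4 with AMH. Control arrays were nearly equal and both AMH arrays far below, and Eif4g1 fell by 1.38 ± 0.17 (2.6-fold, adjusted p = 0.00183). A dimmer probe set of Eif4g1 read 33.3 and 29.7 against 75.7 and 46.4 and gave 0.67 ± 0.27 without a call. Averaged over both, Eif4g1 gave -0.35 (adjusted p = 0.212).

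Its homologue Eif4g3 read 258.8 and 271.7 in control and 144.9 and 80.1 with AMH and fell by 1.18 ± 0.25 (2.26-fold, adjusted p = 0.0145). Eif4g2, a related scaffold that lacks the cap-binding partner site and serves cap-independent initiation, was not called at its brightest probe set. It read 2507.1 and 2391.3 in control and 3223.2 and 3302.1 with AMH, and gave 0.41 ± 0.13 just outside the threshold (adjusted p = 0.0567). A further probe set of Eif4g2 rose by 0.61 ± 0.15 (adjusted p = 0.0258). With hybridization control scaling the brightest gave -0.07.

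The helicase eIF4A is encoded by several paralogues. Eif4a1 read 1776.8 and 1765.4 in control and 1058.9 and 1118.3 with AMH, and fell by 0.69 ± 0.14 (1.62-fold, adjusted p = 0.0104). The call was lost without control replicate 1 (adjusted p = 0.108) and without control replicate 2 (adjusted p = 0.088), although the difference barely moved (-0.69 and -0.70). Eif4a2 read 3099.4 and 3506.2 against 4192.3 and 4538.2 and gave 0.40 ± 0.14 without a call (adjusted p = 0.0721). Eif4a3, the helicase of the exon junction complex, gave -0.37 ± 0.14 (adjusted p = 0.102). No test of the difference between paralogues was run.

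Eif4e, the cap-binding protein, read 1460.2 and 1645.6 in control and 1156.2 and 970.7 with AMH. It fell by 0.54 ± 0.15 (adjusted p = 0.0396), a call lost in 7 of 14 alternatives. The relatives Eif4e2 (-0.30 ± 0.18) and Eif4e3 (0.58 ± 0.24, with 0.01 at a dimmer probe set) were not called. Of the cofactors of the helicase, Eif4b gave -0.08 ± 0.14 and Eif4h -0.23 ± 0.15, yet a dimmer probe set of Eif4h fell by 2.14 ± 0.28 (94.8 and 90.4 against 4.5 and 13.5, adjusted p = 0.002). The AMH values of that probe set lie below the filter intensity of 27.8, where the constant of 16 weighs heavily in the log2 value. Averaged over both probe sets, Eif4h was called lower (-1.18, adjusted p = 0.00816).

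eIF5A carries the modified lysine hypusine and helps ribosomes over stretches such as prolines. Eif5a read 1394.6 and 1195.5 in control and 501.4 and 592.1 with AMH, with a clear gap between the groups. It fell by 1.22 ± 0.16 (2.33-fold, adjusted p = 0.00219) and passed in each of the 14 alternatives. Eif5a has no other probe set, so averaging probe sets could not alter its difference. Its paralogue Eif5a2 read 127.5 and 130.4 against 171.5 and 151.8 and gave 0.29 ± 0.18, not called, with 0.16 at the other probe set.

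Elongation factors, grouped by symbol together with the scaffold protein gene Eef1e1, gave 1 rise and 2 falls among 6 tested. Elongation factor mRNAs are known carriers of a terminal oligopyrimidine tract, through which mTOR controls translation. It is a cytosine followed by further pyrimidines at the 5′ end. The transcript starts of a gene that fell and of one that rose are shown because both carry such a tract in the RefSeq sequence (GRCr8). Each is 30 bases from 10 before the annotated start, with the tract in capitals to its last pyrimidine: Eef1a1 at chr8:88225050-88225079 on the reverse strand, and Eef1b2 at chr9:72074081-72074110 on the forward strand.
Eef1a1: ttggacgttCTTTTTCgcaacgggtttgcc
Eef1b2: ggccggtcccggCCCTTTTTCTCCCTCagc
The search was made after the values were known, for a tract of at least 7 bases between 10 before and 15 after the start. It occurred in 3 of 6 genes of this group with an entry, Eef1e1 among the 6, and in 10.3% of the 33469 entries of the table. In Eef2, which fell, and Eef1g, which was not called, the longest such run had 2 bases. Annotated starts can be off by some bases, so a missing tract in this window says only that these letters are not there.

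Eef1a1, which delivers charged tRNA to the ribosome, read 7519.8 and 7663.1 in control and 4879.1 and 4667.9 with AMH. It fell by 0.67 ± 0.13 (1.59-fold, adjusted p = 0.00953), and a second probe set fell by 0.56 ± 0.14. The call was lost with quantile normalization (-0.36, adjusted p = 0.0828), without a filter (adjusted p = 0.0544) and without either control replicate (adjusted p = 0.103 for each). The brightest probe set is of a type that can also report related sequences, and Eef1a1 has many copies in the genome, so its values are uncertain. Eef1a2, the form of muscle and neurons, was at most 27.1 on any array and was not tested.

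Eef1b2, the nucleotide exchange factor of eEF1A, read 4012 and 3873.3 in control against 5698.7 and 5461.1 with AMH. Both AMH arrays were higher, a rise of 0.50 ± 0.13 (1.41-fold, adjusted p = 0.0285). It shrank to 0.016 with hybridization control scaling (adjusted p = 0.965) and lost its call in 6 of 14 alternatives. Its partners in the exchange complex were not called: Eef1g gave -0.07 ± 0.14 and Eef1d -0.57 ± 0.21 (adjusted p = 0.091).

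Eef2, the translocase, read 2604.6 and 2616.4 in control and 1746.8 and 1849 with AMH, and fell by 0.53 ± 0.13 (1.45-fold, adjusted p = 0.025). That call was lost in 6 of 14 alternatives, among them median centring (adjusted p = 0.0773). Eef1e1, a scaffold protein of the multisynthetase complex, gave -0.05 ± 0.20. Of the enzymes that act on elongation factors, 3 were tested and none was called. The lysine methyltransferase genes Eef1akmt2, Eef1akmt4 and Eef1akmt1 gave 0.75 ± 0.25, -0.23 ± 0.24 and -0.46 ± 0.19. The eEF2 kinase gene Eef2k was at most 25.3 at its brightest probe set and was not tested.

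Cytosolic tRNA synthetases were represented by 19 genes, of which 2 rose, 4 fell and 13 were not called, with a median of 0.06. Many of these genes carry in their promoters the sequence TGATGNAA, the core of a composite element bound by ATF4, the transcription factor of the amino acid response. It was looked for, after the values were known, on both strands from 250 bases before to 50 after the RefSeq start. It occurred in 7 of 17 cytosolic synthetase genes with an entry (41.2%), in 0 of 13 mitochondrial ones and in 3.98% of the 33469 entries. Beyond the synthetases, Eif2s2 was the 1 further member with a match. The matches of the genes that rose (Yars1) and fell (Tars1) and of 2 genes that were not called (Iars1 and Mars1) are shown, 5′ to 3′ on the gene's strand, with the motif or its reverse complement in capitals. They lie at chr5:146820183-146820212 (forward), chr2:62114811-62114840, chr17:15193658-15193687 and chr7:65023752-65023781 (all reverse) of GRCr8.
Yars1: cggagctacgagctcagcTGATGCAAcctg
Tars1: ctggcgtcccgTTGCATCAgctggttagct
Iars1: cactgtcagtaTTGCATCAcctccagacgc
Mars1: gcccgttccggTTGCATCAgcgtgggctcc
Genes with a match did not share a direction: 1 rose, 1 fell and 5 (Aars1, Cars1, Iars1, Mars1 and Nars1) were not called.

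Yars1, which charges tRNA with tyrosine, read 286.7 and 331.4 in control and 533.1 and 609.4 with AMH. It rose by 0.85 ± 0.17 (1.81-fold, adjusted p = 0.0099), a call lost without control replicate 1 (adjusted p = 0.1) and with hybridization control scaling (0.39, adjusted p = 0.251). Lars1, the leucine enzyme and a leucine sensor for mTOR, read 572.9 and 595.5 against 849 and 939.3 and rose by 0.60 ± 0.15 (adjusted p = 0.0239). Its dimmer probe set gave -0.11, and the mean of both 0.24 (adjusted p = 0.423). The call was also lost without control replicate 1 (adjusted p = 0.201), without control replicate 2 (adjusted p = 0.141), without an intensity trend (adjusted p = 0.0649) and with hybridization control scaling (0.13, adjusted p = 0.727).

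Among the falls, Hars1, the histidine enzyme, read 202.6 and 185.1 in control and 88.6 and 84.1 with AMH. It fell by 1.03 ± 0.19 (2.05-fold, adjusted p = 0.0077), and its dimmer probe set fell by 1.51 ± 0.21 (adjusted p = 0.003). Without control replicate 1 the adjusted p of Hars1 was 0.0708. Tars1, the threonine enzyme, read 405 and 483.5 against 260 and 210.2 and fell by 0.88 ± 0.18 (adjusted p = 0.0128; 0.106 without control replicate 2). Kars1, for lysine, read 1106 and 1034.5 against 657.7 and 651.6 and fell by 0.69 ± 0.14 (adjusted p = 0.0121). The call of Kars1 was lost without control replicate 1 (adjusted p = 0.141) and without control replicate 2 (adjusted p = 0.0759). Qars1, for glutamine, read 967.7 and 973.6 against 660.1 and 684 and fell by 0.52 ± 0.14 (adjusted p = 0.0336), lost in 6 of 14 alternatives.

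Lars1, Kars1 and Qars1 belong to the multisynthetase complex together with the enzymes for isoleucine, methionine, arginine, and glutamate with proline. The other measured enzymes of that complex were not called: Iars1 gave 0.40 ± 0.17, Eprs1 0.21 ± 0.18, Mars1 -0.23 ± 0.20 and Rars1 -0.29 ± 0.18. Among the remaining cytosolic enzymes, Aars1 was nearly level (542.6 and 535.1 against 563 and 563.1, 0.06 ± 0.15), and Gars1 gave -0.15 ± 0.20 with AMH arrays at 1042.6 and 690.1. Wars1 gave 0.48 ± 0.16 (adjusted p = 0.0649) and Farsa -0.60 ± 0.19 (adjusted p = 0.0535), both without overlap between the groups.

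Dimmer probe sets of several uncalled synthetases fell. For Eprs1 they fell by 0.76 ± 0.19 (540.5 and 625 against 287.6 and 395.9, adjusted p = 0.0265) and in another probe set fell by 1.19 ± 0.26 (adjusted p = 0.0154), and the mean over probe sets of Eprs1 gave -0.58 (adjusted p = 0.0461). One of Gars1 fell by 1.17 ± 0.23 (adjusted p = 0.0105) and one of Cars1 fell by 1.38 ± 0.26 (adjusted p = 0.00915). The AMH values of this Cars1 probe set (24.9 and 14.4) and of the Eprs1 probe set with the larger fall (23.6 and 17.3) lie below the filter intensity of 27.8. Both were tested because the control arrays are brighter, so their sizes are set against background. That of Wars1 gave -0.65 ± 0.23 and that of Iars1 -0.09 ± 0.26, both not called.

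Mitochondrial synthetases charge tRNAs for the proteins made inside mitochondria. Counted by symbols that end in 2, 13 were measured, of which 1 rose, 2 fell and 10 were not called (median -0.20). Ears2, the glutamate enzyme, read 94.3 and 105.6 in control and 32.6 and 31.7 with AMH, values close to the filter intensity of 27.8. It fell by 1.27 ± 0.22 (2.41-fold, adjusted p = 0.00674), and by 0.77 with 64 added. Vars2, for valine, read 117.6 and 83.8 against 56.3 and 45.2 and fell by 0.80 ± 0.24 (adjusted p = 0.0474), lost in 8 of 13 alternatives. Yars2, for tyrosine, read 159.3 and 171.2 against 248 and 257.8 and rose by 0.57 ± 0.17 (adjusted p = 0.0465), lost in 7 of 14. Tars2 gave 0.41 ± 0.20 and Rars2 0.06 ± 0.18 without a call. For tyrosine both the cytosolic and the mitochondrial enzyme gene rose, and for histidine the cytosolic gene fell while Hars2 gave -0.10 ± 0.27.

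Many members have more than 1 probe set, and these often disagreed. Of 26 genes with more than 1 tested probe set, the sign differed between probe sets in 14 and the call in 13. Among the 33 tested probe sets that were not the brightest of their gene, 1 was higher and 11 lower. That is 33.3% lower, against 21.6% of the 3420 such probe sets of all genes, of which 4.21% were higher. In 3 of the 11 (of Eif4h, Eprs1 and Cars1) both AMH arrays lay below the filter intensity, so that they were tested through the control arrays. Among the 12 with a mean above an intensity of 100, a limit chosen after the values were seen, 4 were lower and 1 higher, and of such probe sets of all genes 29% were lower. In 23 of the 33 the difference lay below that of the gene's brightest probe set. The positions of the probes along the transcripts were not used here, and the 3′/5′ ratio differed between the groups as given above. Its part in these differences was not tested.

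**Figure D4:**
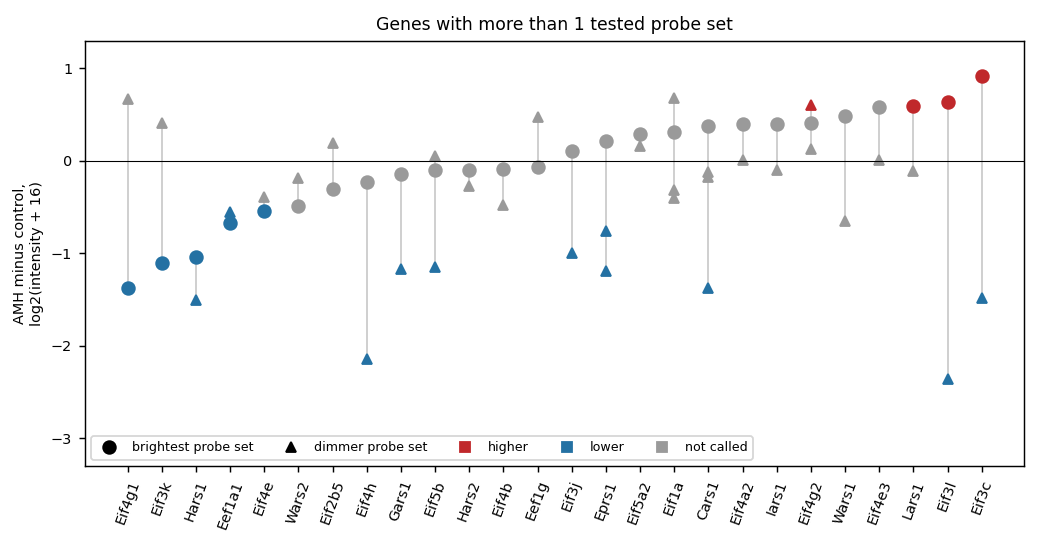
Fitted difference (AMH minus control, log2(intensity + 16)) of every tested probe set of the 26 members with more than 1. Circles are the brightest probe set of a gene and triangles the dimmer ones; 11 of 33 dimmer probe sets were called lower, among them those of Eif3l (-2.36), Eif4h (-2.14) and Eif3c (-1.48).

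Genes around this machinery were taken from lists chosen with earlier results of these data known. Their calls are given under the reported setting only. With hybridization control scaling 0.885% of all tested genes rose, against 11.1% as reported. The share called in either direction was 50% for eIF2 kinases and phosphatases, 37.5% for scaffolds and editing, 22.7% for ATF4 targets and 14.3% each for the mTOR list and the release factors, against 23% of all tested genes. Of 10 genes for eIF2 kinases and the phosphatases that oppose them, 3 rose and 2 fell (median -0.21). Eif2ak1, the haem-regulated kinase, fell by 0.91 ± 0.18 (276 and 280.3 to 153.7 and 128.6, adjusted p = 0.0105), and Gcn1, the activator of the amino acid sensing kinase, by 0.81 ± 0.20. That kinase gene itself, Eif2ak4, rose by 0.80 ± 0.23 (adjusted p = 0.0436). Dnajc3, an inhibitor of eIF2 kinases, rose by 0.80 ± 0.20 and the phosphatase subunit gene Ppp1cb by 0.58 ± 0.16. Of 22 tested stress targets of ATF4, 3 rose and 2 fell (median 0.07). Vldlr rose by 1.12 ± 0.19, Asns, asparagine synthetase, by 1.42 ± 0.32 (53 and 119.6 to 203.9 and 287.9, adjusted p = 0.0177) and the arginine transporter gene Slc7a1 by 0.85 ± 0.22. Sesn2 fell by 0.98 ± 0.21 and Ddit4, both inhibitors of mTOR, by 0.79 ± 0.21, while Atf4 gave -0.62 ± 0.23 without a call.

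Among 14 genes of eIF4E-binding proteins and the mTOR pathway, 1 rose and 1 fell (median 0.05). Eif4ebp1, which sequesters eIF4E when mTOR is inactive, read 483.9 and 446.1 in control and 242 and 279.6 with AMH and fell by 0.80 ± 0.16 (1.74-fold, adjusted p = 0.0124). Pdcd4, an inhibitor of eIF4A, rose by 0.63 ± 0.17 (adjusted p = 0.0363). Rheb, the activator of mTOR, gave 0.41 ± 0.14 and Tsc2, its inhibitor, -0.37 ± 0.18, neither called. Of 8 genes for synthetase scaffolds, editing and peptidyl-tRNA release, 1 rose and 2 fell (median -0.10). Aarsd1, an editing protein for mischarged alanine tRNA, rose by 1.20 ± 0.17 (177.7 and 152.4 to 408.9 and 386.5, adjusted p = 0.00312). Ptrh2, a peptidyl-tRNA hydrolase, fell by 1.38 ± 0.19 and Ptrhd1 by 1.62 ± 0.25, while the scaffold gene Aimp2 gave 0.29 ± 0.14 without a call. Of 7 release and recycling factors 1 rose, Gspt1 (eRF3a, 0.47 ± 0.14, adjusted p = 0.0472). Not called were Pelo, a ribosome rescue factor (0.45 ± 0.16), its partner Hbs1l (-0.05 ± 0.19), Gspt2 (-0.16 ± 0.19) and Etf1 (eRF1, -0.03 ± 0.15).

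**Figure D5:**
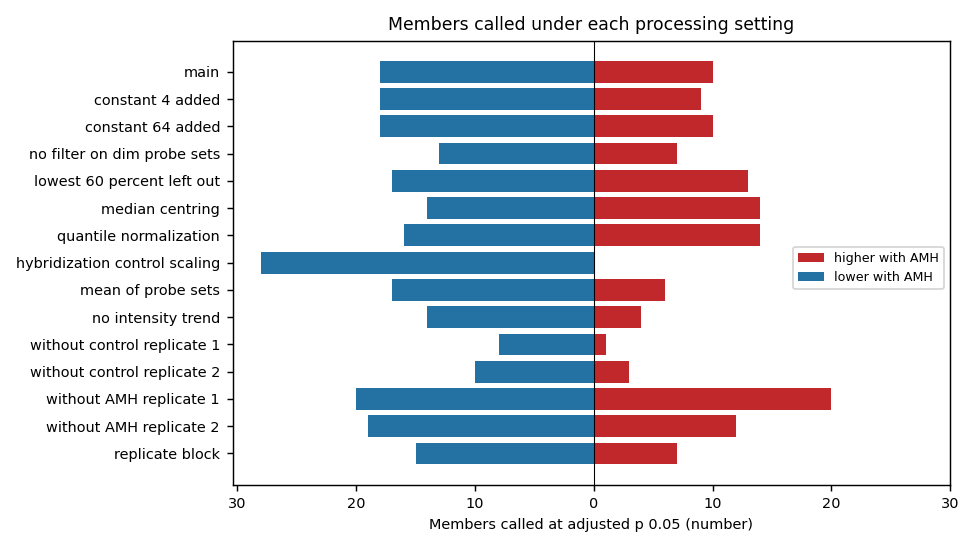
Number of members called higher (red, to the right) and lower (blue, to the left) at an adjusted p of 0.05 under the reported setting (main) and 14 alternatives. Falls range from 8 to 28 and rises from 0 to 20; with scaling to the hybridization controls there are 0 rises and 28 falls.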

How the data were processed

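The authors deposited probe set intensities on a linear scale, one value a probe set from biotin-labelled RNA, per the labels; no source used here names the summarising software. Trimmed by 2 percent at each end, the mean was 125.03 on every array. No detection calls were used. Values were turned into log2(intensity + 16); after leaving out 57 control probe sets and, of the others, the dimmest 40 percent (below an intensity of about 27.8), 18625 were fitted with limma 3.58.1 in R 4.3.3 (lmFit, eBayes with intensity trend, two-sided, Benjamini-Hochberg over those probe sets). The fit had 2 residual and 6.33 prior degrees of freedom. Symbols came from the platform annotation (85 of 85 matched RefSeq by Entrez ID); 7 probe sets listing a member beside other genes were not used. Named members are, per role, those with the 2 highest and 2 lowest statistics and the brightest, the paralogues, and genes whose probe sets differ, and per further list the 2 highest and 2 lowest; others were named after their values were seen. Members and lists were chosen with earlier results of these data known. Promoter sequences are RefSeq's (GRCr8; 79 of 85 genes).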

Additional observations from a re-analysis of the deposited data

How the results depend on the processing

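With 14 alternatives, the count of members higher (10) was 6 with the mean of probe sets, 4 without an intensity trend and 0 with hybridization control scaling, and ran from 1 to 20 when single arrays were left out. The count lower (18) was 28 with hybridization control scaling and ran from 8 to 20 when single arrays were left out. The median (-0.077) was 0.02 with median centring, -0.54 with hybridization control scaling and -0.215 with the mean of probe sets, and lay between -0.124 and -0.008 without single arrays. With the mean of probe sets, signs turned for Eif3c (-0.28), Eif3l (-0.86) and Eprs1 (-0.58), each called as reported or with that mean, and for the uncalled Cars1 (-0.32), Eif3j (-0.44), Wars1 (-0.08) and Eef1g (0.20); other probe sets entered by construction. Deviations of arrays with the same replicate number were not correlated between the groups (-0.000816 across probe sets). With 2 arrays per group this cannot settle whether the pools were paired. With the replicate number as a block 7 members were higher and 15 lower, all among those reported. Over dimmer probe sets with a mean above 100, an alternative chosen after seeing the data, 33.3% were lower, as over all tested dimmer ones. The 2 arrays per group and dim probe sets limit the precision.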

Other observations

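Of 13 mitochondrial translation factors 1 rose and 1 fell (median 0.21, against 0.07 for all tested genes). The share called was 15.4% for this list, 12.5% for hypusine and diphthamide and 20% for poly(A) tail binding, against 23% of all tested genes. Calls of these lists are given under the reported setting only. Mtif2, the mitochondrial initiation factor, read 292.5 and 272.4 in control and 551.4 and 564.2 with AMH and rose by 0.94 ± 0.15 (limma, adjusted p = 0.00532). Mtrf1, a mitochondrial release factor, fell by 0.96 ± 0.24 (137.6 and 101.2 to 44 and 62.8, adjusted p = 0.0265). Qrsl1, a subunit of the enzyme that makes mitochondrial glutaminyl-tRNA, gave 0.61 ± 0.22 and Tsfm -0.16 ± 0.18 without a call. Of 8 genes for hypusine and diphthamide, the modifications of eIF5A and eEF2, 1 rose, Dph3 (0.75 ± 0.15, 553.5 and 579.5 to 902.9 and 1031.1, adjusted p = 0.0111). Dph7 gave 0.53 ± 0.22, Dohh -0.07 ± 0.23 and Dph5 -0.05 ± 0.24, not called. Of 5 poly(A) tail binding genes 1 fell, the nuclear Pabpn1, by 0.67 ± 0.17 (689.6 and 731.7 to 494.8 and 392, adjusted p = 0.0254). Pabpc4 gave -0.38 ± 0.16, Paip1 0.06 ± 0.15 and Paip2b 0.00 ± 0.15.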
